A study of Arabidopsis thaliana with 22 samples.

Results

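The transcripts of 7 protein-coding genes of Arabidopsis, picked out as uncharacterised genes, were followed in roots that had lost their Fe supply: AT5G05250, AT3G56360, AT3G61930, AT5G55620, AT4G33666, AT5G22270 and AT2G36885. Each was measured by 1 of the 22746 probe sets on the array. They were selected on the difference between Fe-deficient and Fe-sufficient roots in these same arrays, so that this difference is given below as a description, without a test. The current gene annotation gives 6 of them no symbol. It lists AT5G22270 as SIED1 (Salt-Induced and EIN3/EIL1-Dependent 1), so that this gene is no longer without a name.

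Roots of dicotyledonous plants such as Arabidopsis take up Fe after reducing ferric chelates at the root surface, and carry the liberated ferrous Fe into the cell through the transporter IRT1. When Fe runs short, a cascade of bHLH transcription factors raises the transcripts for uptake and distribution. Among them FIT, which acts together with factors such as BHLH039, controls IRT1. Transcripts of the Fe-storing ferritins and of some presumed vacuolar Fe importers decline. A gene without a known function can be compared with these well-described genes by its direction, its timing and its correlation with them from array to array.

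The plants were of the accession Landsberg erecta and had been grown for 30 days in hydroponic culture. At the transfer, 1 h into the light period, roots of both groups were washed with EDTA, a chelator that removes Fe from the root surface, and were then placed in medium without Fe (Fe-deficient) or with Fe (Fe-sufficient). Roots were harvested at 0, 1, 6 and 24 h, with 3 arrays per medium at 0, 1 and 6 h and 2 at 24 h, which gives 11 Fe-deficient and 11 Fe-sufficient arrays. Each sample pooled the roots of several plants, and the study kept only those Fe-deficient cultures whose ferric chelate reductase activity was raised after 24 h, so that the Fe-deficient plants were picked for a response. The harvests of 0 and 24 h fell at the same time of day, those of 1 and 6 h did not. A further harvest, at 0.5 h, is left out.

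Values are the deposited linear intensities of the Affymetrix ATH1 array, scaled to a common trimmed mean (between 500.039 and 500.047 on every array) with medians of 181.1 to 210.3. A log2 change is the mean of log2(intensity + 1) in Fe-deficient roots minus that in Fe-sufficient roots, with the standard error (SE) of the model fitted to all probe sets. Arrays of a group are called biological replicates in the labels, and p-values measure only the spread between them. Of the markers of root cells, 2 of 8 had a named probe set, and both were present on every array. They were PYK10, a root beta-glucosidase, at 8878.5 to 16883.5, and EXP7, a root hair expansin, at 90 to 577.6. Of the markers of shoot tissue, 3 of 6 had a named probe set, with RCA at 45.7 to 120.4, LHCB2.2 at 1.7 to 108 and GAPA at 16.5 to 83.7. Only 13436 probe sets were named by the array annotation and 23 by the study's tables, so that other markers may be on the array unnamed. The sum of the 3 shoot markers was 91.9 to 129.5 on Fe-deficient and 171.4 to 270.9 on Fe-sufficient arrays at 24 h, without overlap, and 121.8 to 255.7 and 143.9 to 239.9 at 6 h. At 24 h RCA overlapped between media, at 61.6 to 83.3 on Fe-deficient and 55.2 to 120.4 on Fe-sufficient arrays. LHCB2.2 and GAPA did not overlap, and both stand in the study's own list of transcripts lowered by Fe deficiency. Whether shoot tissue had a part in the values at 24 h was not tested. In whole roots, a change in the number of cells that express a gene and a change in the RNA of each cell cannot be told apart.

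Of the 7 transcripts 5 were higher and 2 were lower in Fe-deficient than in Fe-sufficient roots at 24 h, on every array and by more than 1.5-fold. At 6 h this held for 3 higher (AT5G05250, AT3G56360, AT3G61930) and 1 lower (AT5G22270). Among all 22746 probe sets, arrays did not overlap and the change exceeded 1.5-fold in 1.27% (higher) and 1.71% (lower) at 6 h and in 3.74% (higher) and 4.13% (lower) at 24 h. The members had been selected on this contrast, and nothing is read from these counts. At 0 h the arrays of both media overlapped for all 7 genes. The share over all probe sets was not counted at 0 h, and nothing is read from this either.

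AT5G05250 was higher in Fe-deficient roots at 6 and 24 h. On Fe-deficient arrays it stood at 630.5, 643.2 and 428.8 at 6 h and at 661.2 and 646.2 at 24 h, against 243.9, 258.4 and 188.8 at 6 h and 184.5 and 228.3 at 24 h on Fe-sufficient arrays. The lowest of these Fe-deficient values lay above the highest Fe-sufficient value of any time. Before this it had stood at 179.4, 147.5 and 88.3 at 0 h and at 83, 174.3 and 171.6 at 1 h on Fe-deficient arrays, against 143.3, 222.4 and 162.8 at 0 h and 173.8, 189.1 and 88.2 at 1 h on Fe-sufficient arrays. The groups overlapped at both early times. At 6 h the log2 change was 1.29 (SE 0.34), and by 24 h it was 1.67 (SE 0.42), which in intensity was a 2.46-fold and a 3.17-fold difference of the means.

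AT3G56360 changed by a smaller factor and with little spread. It stood at 2922.2, 3364.3 and 3228.9 on Fe-deficient and at 1608.3, 1582.2 and 1674.2 on Fe-sufficient arrays at 6 h, and at 3246.6 and 3142.6 against 1738 and 2022.2 at 24 h. The media were cleanly apart at both times. At 0 h the Fe-deficient arrays (1861.7 to 3154) and the Fe-sufficient ones (1885 to 2552.3) covered much the same range. The difference at 6 h was made from both sides, since the log2 change against 0 h was 0.36 in Fe-deficient and -0.40 in Fe-sufficient roots. Between media the log2 change was 0.97 (SE 0.23) at 6 h, beside 0.77 (SE 0.28) at 24 h.

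AT3G61930 had one of the largest changes among the members and the widest spread between arrays. At 6 h it stood at 408.7, 717.4 and 1076.2 on Fe-deficient and at 320.5, 107.7 and 129.6 on Fe-sufficient arrays, and at 24 h at 1850.2 and 1418.3 against 388.2 and 355.7. The gap between media at 6 h was narrow, since the first replicate was low on the Fe-deficient and high on the Fe-sufficient side. The 0 h arrays read 126.3, 988 and 95.3 in Fe-deficient and 174, 558.7 and 238.3 in Fe-sufficient roots, and the 1 h arrays 130.7, 673.6 and 225.4 against 56, 251.7 and 134.6. Replicate 2 was the highest array in both media at both of these times, before or soon after the media differed. The log2 change was -0.32 (SE 0.82) at 0 h, 1.12 (SE 0.82) at 1 h, 2.04 (SE 0.82) at 6 h and 2.12 (SE 1.01) at 24 h, and all 3 same-numbered pairs were higher in Fe-deficient roots at 1 h although the groups overlapped.

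AT5G55620 was dim on many arrays and had its largest difference late. At 24 h it stood at 463.8 and 508 on Fe-deficient and at 96.9 and 67.6 on Fe-sufficient arrays, a 5.91-fold difference of the means. No other member had a larger log2 change at this time, 2.57 (SE 0.92). At 6 h the values were 76.9, 63.6 and 187.5 on Fe-deficient and 111.5, 22.6 and 6.2 on Fe-sufficient arrays, and the groups overlapped. The log2 change at 6 h, 1.88 (SE 0.75), rested on single arrays: it was 0.93 without Fe-sufficient replicate 3 and 2.91 without Fe-sufficient replicate 1. At 1 h the groups did not overlap, with 47.4, 90.2 and 46.4 in Fe-deficient and 20.8, 28.7 and 24.9 in Fe-sufficient roots. The intensity was under 32 on 6 of 22 arrays, where the array resolves levels poorly.

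AT4G33666 was higher at 24 h, with 538.2 and 782.3 on Fe-deficient and 356.2 and 150.9 on Fe-sufficient arrays. The log2 change at this time was 1.48 (SE 0.62), and was 0.86 without Fe-sufficient replicate 2 and 2.1 without Fe-sufficient replicate 1. At 6 h the media could not be separated, since Fe-deficient arrays read 127.7, 375.6 and 736.3 and Fe-sufficient arrays 166.9, 321 and 262.5. The log2 change at 6 h was 0.44 (SE 0.51), and it was -0.14 without Fe-deficient replicate 3 and 1.12 without Fe-deficient replicate 1. At 1 h the values were 215.8, 304 and 318.7 in Fe-deficient and 148.2, 184.3 and 146.4 in Fe-sufficient roots. AT4G33666 and AT5G55620 were the 2 members whose arrays did not overlap at 1 h, both higher by more than 1.5-fold, which held for 1.33% of all probe sets, and nothing is read from this count.

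**Figure D1:**
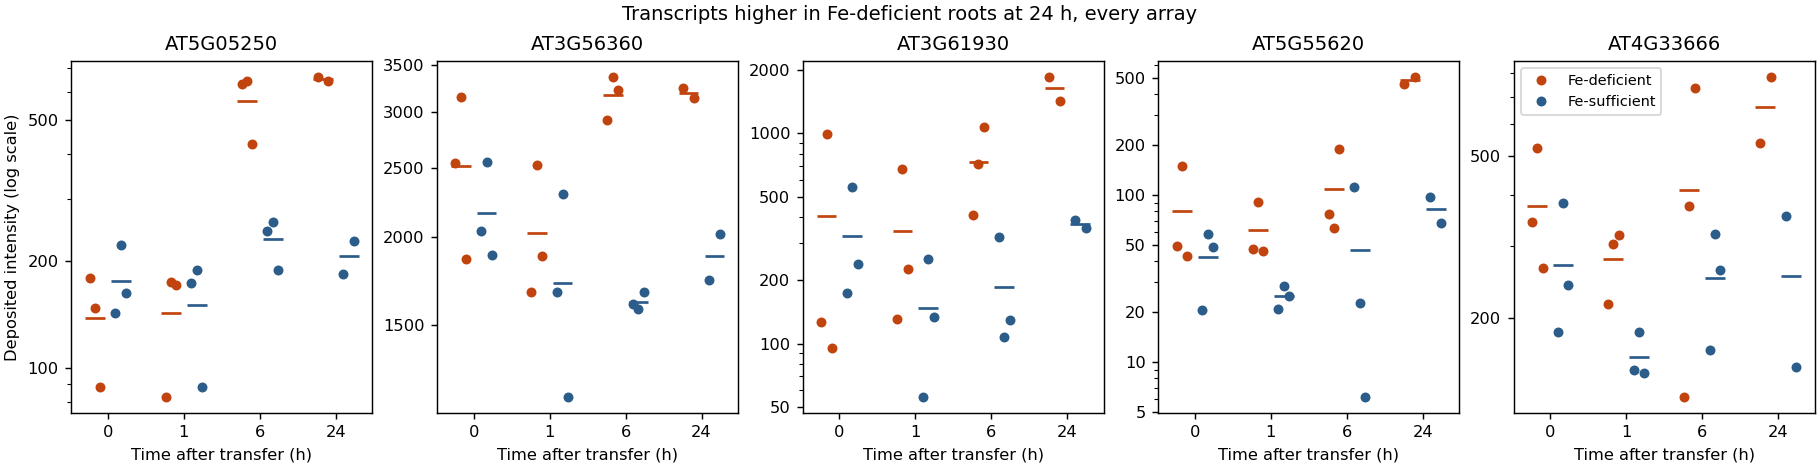
Deposited intensity (log scale) of the 5 transcripts that were higher in Fe-deficient roots at 24 h, by time after transfer in h. Each point is 1 array and each bar the mean of a group (3 arrays per medium at 0, 1 and 6 h, 2 at 24 h), with Fe-deficient left of Fe-sufficient. AT5G05250 and AT3G56360 separate cleanly from 6 h, AT5G55620 and AT4G33666 overlap at 6 h and separate at 24 h.

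AT5G22270 (SIED1), whose listed name ties it to salt and to the ethylene-signalling factors EIN3 and EIL1, was lower in Fe-deficient roots from 6 h. It stood at 1340.8, 1145.7 and 1101.8 on Fe-deficient and at 2100.1, 2337 and 2320.1 on Fe-sufficient arrays at 6 h, and at 1061.8 and 926.9 against 1533.7 and 2010.4 at 24 h. No Fe-deficient array reached the lowest Fe-sufficient one at either time. The difference again came from both sides at 6 h, where the log2 change against 0 h was -0.59 in Fe-deficient and 0.53 in Fe-sufficient roots. At 0 h the arrays read 1922.5, 1545.4 and 1925.3 in Fe-deficient and 1788.1, 1438.9 and 1478.2 in Fe-sufficient roots, slightly higher in the Fe-deficient array of all 3 same-numbered pairs. At 6 h the log2 change was -0.92 (SE 0.21), and by 24 h it was -0.82 (SE 0.26).

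AT2G36885 had the smallest change of the 7 at 24 h. At 24 h it stood at 229.5 and 178.7 on Fe-deficient and at 316.5 and 316.2 on Fe-sufficient arrays. The log2 change was -0.64 (SE 0.26). At 6 h the values were 280.1, 229.6 and 161.6 in Fe-deficient and 345.9, 346.9 and 273.5 in Fe-sufficient roots, where the groups overlapped although the Fe-deficient array was lower in all 3 pairs. The log2 change at 6 h was -0.55 (SE 0.21) and was -0.34 without Fe-deficient replicate 3. In Fe-sufficient roots the mean stayed between 298.8 and 322.1 over the 4 times, while in Fe-deficient roots it was 344.8 at 0 h, 266.8 at 1 h, 223.8 at 6 h and 204.1 at 24 h.

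**Figure D2:**
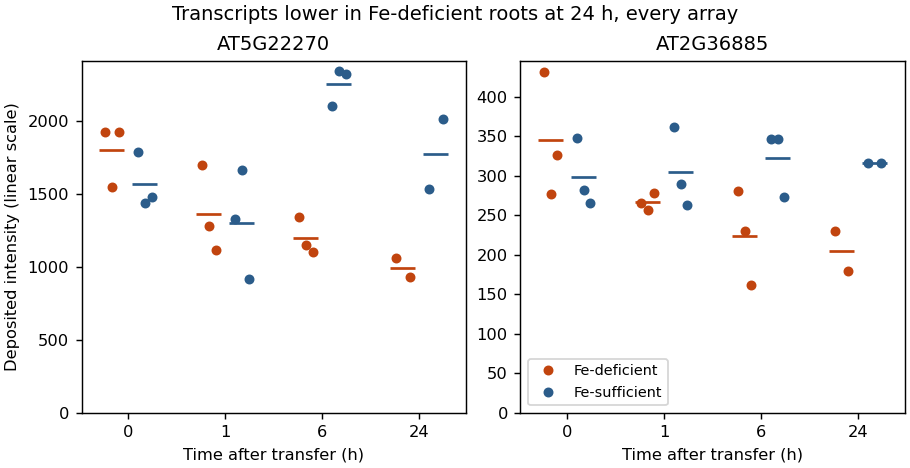
Deposited intensity (linear scale from 0) of the 2 transcripts that were lower in Fe-deficient roots at 24 h, by time after transfer in h. Each point is 1 array and each bar the mean of a group, with Fe-deficient left of Fe-sufficient. AT5G22270 is apart at 6 and 24 h, and AT2G36885 at 24 h.

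The log2 change at 6 h was within 1 SE of that at 24 h for AT5G05250 (1.29 and 1.67), AT3G56360 (0.97 and 0.77), AT3G61930 (2.04 and 2.12), AT5G55620 (1.88 and 2.57), AT5G22270 (-0.92 and -0.82) and AT2G36885 (-0.55 and -0.64), taking the SE of 24 h. For AT4G33666 it was 0.44 at 6 h and 1.48 at 24 h. No difference in timing between the members was tested. The order of the changes at 24 h was AT5G55620 (2.57), AT3G61930 (2.12), AT5G05250 (1.67), AT4G33666 (1.48) and AT3G56360 (0.77), but each neighbouring pair in it was closer than the larger SE of the pair, apart from AT4G33666 and AT3G56360. The spread between arrays of a group, as the residual SD on the log2 scale, was 1.07 for AT3G61930, 0.97 for AT5G55620 and 0.65 for AT4G33666, against 0.43 for AT5G05250, 0.28 for AT3G56360, 0.25 for AT5G22270 and 0.25 for AT2G36885. The median over all probe sets was 0.38.

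**Figure D3:**
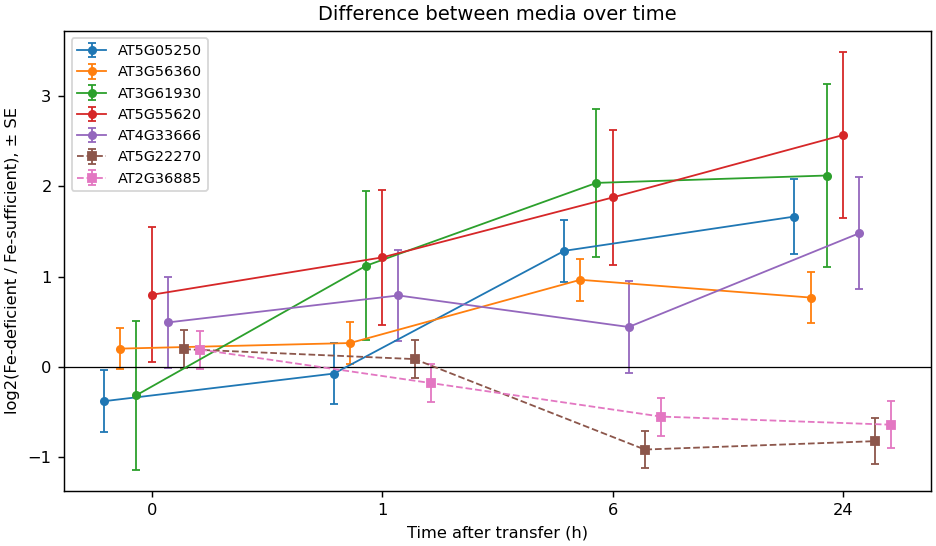
Log2 change between Fe-deficient and Fe-sufficient roots (y axis, error bars ± SE of the fit) of the 7 genes by time after transfer in h. Solid lines are the 5 genes higher and dashed lines the 2 genes lower at 24 h; at 6 h all but AT4G33666 (0.44, against 1.48 at 24 h) are within 1 SE of their 24 h value.

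Against 0 h, the log2 change of AT5G05250 was 2.06 in Fe-deficient and 0.40 in Fe-sufficient roots at 6 h, and 2.29 and 0.24 at 24 h. Most of its rise thus lay in the Fe-deficient arrays. At 24 h against 0 h AT3G61930 had changes of 2.82 in Fe-deficient and 0.38 in Fe-sufficient roots, and AT5G55620 of 2.81 and 1.04. The level of AT5G55620 was thus higher at 24 h than at 0 h in both media. The changes were 0.84 and -0.15 for AT4G33666, -0.85 and 0.17 for AT5G22270 and -0.74 and 0.09 for AT2G36885. Timing was part of the choice of the members, and these changes are a description without a test. To describe how far the array moved between times, the mean of both media was compared in limma over all 22746 probe sets. This mean includes the Fe-deficient arrays, so that part of a response to Fe loss enters it and time is not measured alone. An adjusted p under 0.05 was reached by 0.0352% at 1 h, 0.659% at 6 h and 0.246% at 24 h against 0 h. At 24 h against 6 h it was reached by 0% in limma (1560 probe sets at an unadjusted p under 0.05). With the replicate number as a block, 3, 278 and 93 probe sets passed at 1, 6 and 24 h against 0 h, in place of 8, 150 and 56. The block also covers 24 h, where same-numbered arrays of both media correlated by -0.41 in their deviations from group means. Replicate numbers may thus not pair the arrays at 24 h.

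Replicate numbers paired the arrays of both media at 0, 1 and 6 h, and replicate 1 was compared with replicates 2 and 3 over these 18 arrays in limma. Of the members 2 differed. AT4G33666 averaged (geometric mean) 187 in replicate 1 and 333 and 288 in replicates 2 and 3, a log2 difference of -0.72 (SE 0.25, adjusted p = 0.0478), and AT2G36885 averaged 334 in replicate 1 and 278 and 256 in replicates 2 and 3, a difference of 0.33 (SE 0.10, adjusted p = 0.0269). Of all probe sets 28.9% passed, so that a difference between replicates was common on these arrays. Leaving out a single array ended the call of AT4G33666 in 14 of 18 cases (adjusted p up to 0.134 without the first Fe-deficient replicate of 6 h), and that of AT2G36885 in 4 of 18, each time without a first replicate (adjusted p 0.0583 to 0.0821). Replicate 1 of AT3G61930 was lower by a log2 difference of -0.88 that did not pass (adjusted p = 0.174) and that passed without the first Fe-sufficient replicate of 6 h (adjusted p = 0.0290).

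Among known Fe genes, 30 of 43 listed had a named probe set, with 31 probe sets in all. Of these, 28 stand in the study's own tables of changed genes on these arrays and are therefore not independent evidence of their direction. A gene that the array annotation does not name could enter only through those tables, so that the counts below were set in part by this choice. Nothing is read from them against the shares of the whole array. A probe set counted as changed if it moved over 1.5-fold at p under 0.05 before adjustment, here in limma. Of 14 probe sets of regulators 10 were higher at 6 h and 12 at 24 h, of 12 of uptake and distribution 7 and 7, and of 5 of storage all 5 were lower at both times. In all, 17 were higher and 5 lower at 6 h, which became 11 and 2 without Fe-deficient replicate 3 of 6 h, and 3 lower without Fe-sufficient replicate 1. The 19 higher and 5 lower at 24 h became 11 higher without Fe-deficient replicate 1 of 24 h, 12 higher without Fe-sufficient replicate 2 and 1 lower without Fe-sufficient replicate 1. Across the array 0.976% were higher and 1.15% lower at 6 h, and 0.765% higher and 0.703% lower at 24 h. The median log2 change at 24 h was 1.45 for regulators, 1.56 for uptake and distribution and -1.49 for storage, beside -0.000102 for all probe sets. Only ORG1, an OBP3-responsive gene, passed an adjusted p, with a log2 change of 1.80 (SE 0.24, adjusted p = 0.0266) at 6 h.

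These Fe genes were set against the members by Pearson's r of log2(intensity + 1) over the 22 arrays. The arrays share their medium, their time and their replicate series, so that r is a description with no test. The 13 induced and 5 storage genes compared here all stand in the study's own tables of changed genes on these arrays. The members were also selected on these arrays, by the difference between media and by timing. The sign of r over the 22 arrays, and over the Fe-deficient arrays alone, was thus set at least in part by this choice. Nothing is read from that sign. AT5G05250, AT3G56360, AT3G61930 and AT5G55620 had a median r of 0.74, 0.72, 0.85 and 0.72 with the 13 induced genes, and of -0.64, -0.66, -0.52 and -0.54 with the 5 storage genes. AT4G33666 was less closely related, with 0.54 and -0.53. The signs were turned for AT5G22270 (-0.49 and 0.48) and AT2G36885 (-0.64 and 0.44).

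Within the 11 Fe-deficient arrays the median r with the induced genes was 0.83 for AT5G05250, 0.73 for AT3G56360, 0.86 for AT3G61930, 0.75 for AT5G55620 and 0.53 for AT4G33666. Within the 11 Fe-sufficient arrays it was 0.31, 0.39, 0.67, 0.43 and 0.29 for the same genes. These arrays are the other side of the difference that chose the members, so that nothing is read from the sign here either. A minority of induced genes had a negative r on Fe-sufficient arrays, such as FIT for AT4G33666 (-0.30) and IMA1 for AT5G55620 (-0.13). With the storage genes the median for these 5 was -0.69, -0.66, -0.62, -0.72 and -0.58 on Fe-deficient arrays. On Fe-sufficient arrays it was -0.09, -0.40, 0.10, 0.16 and -0.09. For AT5G22270 the median with the induced genes was -0.79 on Fe-deficient and 0.14 on Fe-sufficient arrays, where single genes went both ways (OPT3 0.68, IRT1 -0.24). For AT2G36885 it was -0.71 on Fe-deficient and -0.02 on Fe-sufficient arrays, again with genes on both sides (ORG1 0.47, FRO3 -0.55). These differences in r between media were not tested.

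**Figure D4:**
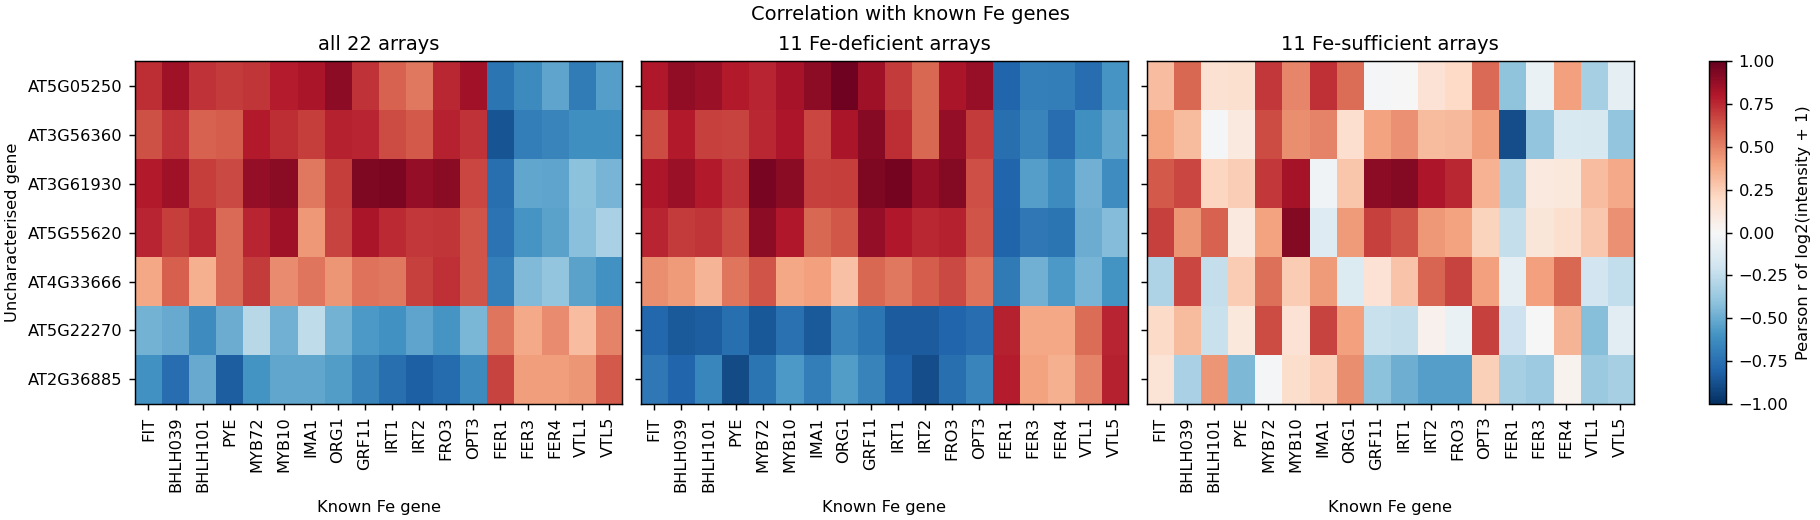
Pearson's r between the 7 genes (rows) and 18 known Fe genes (columns, 13 induced genes and then the 5 storage genes from FER1 to VTL5), for all 22 arrays, the 11 Fe-deficient and the 11 Fe-sufficient arrays. Red is positive and blue negative; the colours are strong on Fe-deficient arrays and paler for most pairs on Fe-sufficient arrays, where AT3G61930 with IRT1 (0.92), AT5G55620 with MYB10 (0.92) and AT3G56360 with FER1 (-0.89) are among the strong ones.

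AT3G61930 was closest to IRT1, the ferrous Fe transporter of the root epidermis. Their r was 0.94 over 22 arrays, 0.96 over the Fe-deficient and 0.92 over the Fe-sufficient arrays, and 0.92 when each array was expressed as its deviation from its group mean. The last value holds neither the medium nor the time, but it still holds the replicate series. Of all probe sets 28.9% differed between replicate 1 and replicates 2 and 3 at 0, 1 and 6 h (adjusted p under 0.05 in limma). How much of this r comes from that series or from single arrays was not tested. Arrays high in AT3G61930 for their group, such as replicate 2 at 0 h, were also high in IRT1. On Fe-deficient arrays of 0 h, replicates 1, 2 and 3 read 126.3, 988 and 95.3 for AT3G61930 and 217.6, 3909.6 and 430.4 for IRT1. With GRF11, a 14-3-3 protein of the Fe response, the deviations correlated by 0.90, and with FRO3, a ferric reductase, by 0.86. With ORG1 and OPT3, a transporter of the phloem, they correlated by 0.18 and 0.07.

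AT5G05250 was closest to ORG1, with an r of 0.90 over 22 arrays and 0.97 over the Fe-deficient ones. It was 0.56 over the Fe-sufficient arrays and 0.58 in the deviations. Spearman's rho was 0.69, and r without the 2 arrays farthest from the median of ORG1 was 0.85. The deviations of AT5G05250 correlated with those of IRT1 by 0.14. AT3G56360 was closest to FER1, a ferritin, with an r of -0.86 (-0.76 on Fe-deficient and -0.89 on Fe-sufficient arrays). AT5G55620 was closest to MYB10, a transcription factor of the Fe response, with an r of 0.85 (0.92 on Fe-sufficient arrays), AT4G33666 to FRO3 with 0.73, AT5G22270 to BHLH101, a bHLH factor of the Fe response, with -0.63 and AT2G36885 to PYE, a bHLH regulator, with -0.83. On Fe-sufficient arrays the last 3 pairs had an r of 0.68, -0.22 and -0.45. In the deviations r was -0.54 for AT3G56360 with FER1 and 0.75 for AT5G55620 with MYB10. It was 0.69, -0.23 and -0.71 for the last 3 pairs.

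**Figure D5:**
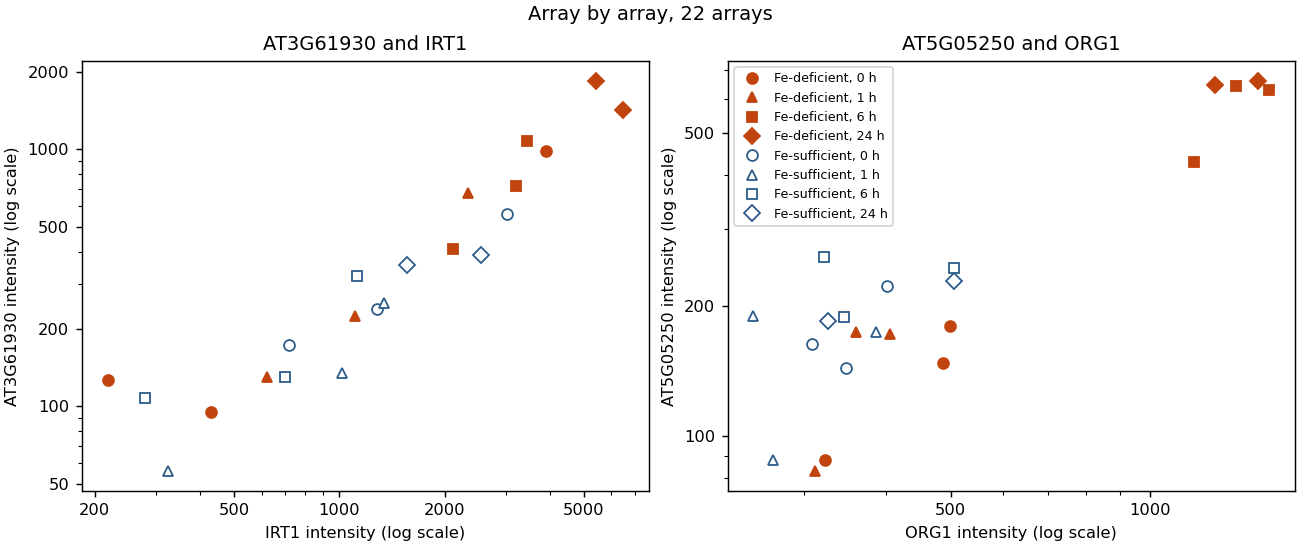
Intensity (both axes log scale) of AT3G61930 against IRT1 and of AT5G05250 against ORG1 on 22 arrays, filled for Fe-deficient and open for Fe-sufficient, with a symbol for each time. The pair with IRT1 forms 1 continuous line over both media (r of 0.94), and in the pair with ORG1 the Fe-deficient arrays of 6 and 24 h stand apart from all others (r of 0.90).

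Among 6027 named probe sets whose mean level was at or above the median of the array, the pattern most like that of AT3G61930 was AT5G38820, with an r of 0.98, followed by IRT1 and AT1G74770 (BTSL1, a ubiquitin ligase that acts on Fe regulators) with 0.94. AT5G38820 was also the nearest to AT5G55620 (0.88) and the second nearest to AT3G56360 (0.80), for which AT1G74770 was nearest (0.86). Nearest to AT5G05250 were ORG1, AT3G52900 (0.85) and BHLH039 (0.84). AT4G33666 was nearest to AT1G61930 (0.78), AT5G22270 to AT5G49780 (0.64) and AT2G36885 to AT5G40510 (0.71). Within these 6027, none of the 18 Fe genes was among the 3 nearest of AT3G56360, AT5G55620, AT4G33666 or AT5G22270. FER1 (0.68) was the third of AT2G36885. AT1G18910 (BTSL2), a listed Fe regulator outside the 18, was the third of AT5G55620 (0.85). The limit on level left out dimmer Fe genes such as MYB72. Its r with AT3G56360 (0.80) was above that of the third there, AT1G60610 (0.78). Negative r was not ranked here.

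Among each other, the 5 rising members correlated by 0.41 to 0.84, with AT3G61930 and AT5G55620 closest (0.84, and 0.68 in the deviations). AT5G05250 and AT3G56360 correlated by 0.70, and by 0.73 in the deviations. The 2 falling members correlated by 0.68. Of the 14 genes next to the members on the chromosome, 9 had a named probe set. None of these moved over 1.5-fold at an unadjusted p under 0.05 in limma at 6 or 24 h. Across the array this held for 0.976% (higher) and 1.15% (lower) at 6 h, and for 0.765% and 0.703% at 24 h. With so few genes, nothing is read from this.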

How the data were processed

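The deposited files hold a linear intensity for each probe set of each ATH1 array, already scaled to a common trimmed mean. AffylmGUI and a probe-level model are given in the methods, while the program behind the deposited intensities is not given in the sources used here. Of 22810 probe sets, 64 controls were left out. Names came from the array annotation (13436 probe sets) or the study's tables (23, among them AT5G22270), and neighbours from the TAIR10.1 annotation.

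Log2(intensity + 1) was fitted in R 4.3.3 with limma 3.58.1 as 8 groups, with 14 residual and 1.81 prior degrees of freedom and Benjamini-Hochberg adjustment, tested on simulated data. The members, the Fe gene lists and the tests were chosen with earlier results of these data known. Named genes are the members, the Fe gene closest to each, and the 3 probe sets of highest r. Deviations from group means correlated by 0.12 to 0.45 for same-numbered arrays of both media at 0 to 6 h and by -0.30 to 0.10 for others, which was taken as pairing by number, from the labels and the data. At 24 h same-numbered arrays correlated by -0.41.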

Additional observations from a re-analysis of the deposited data

Results flagged for a closer look

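AT5G22270 was higher in the Fe-deficient array of every same-numbered pair at 0 h and lower in every pair at 6 h and at 24 h, so that its log2 change was lower by -1.11 at 6 h and by -1.02 at 24 h than at 0 h. This difference between times was not tested, because the gene was selected on these arrays. No group held the 4 arrays needed to look for single arrays far from the rest.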

How the results depend on the processing

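Alternatives were a pseudocount of 16, quantile normalization, a filter on mean intensity under 32, the replicate block, and each array left out. The block also covers 24 h, where replicate numbers may not pair the arrays of both media. The number of probe sets that differed between times was 8 at 1 h against 0 h, and 4 with quantile normalization, 3 with the replicate block and 2 to 32 with single arrays left out. It was 150 at 6 h against 0 h, 278 with the block and 72 to 235 with arrays left out. It was 56 at 24 h against 0 h, 93 with the block and 0 to 73 with arrays left out, and 0 at 24 h against 6 h, with 0 to 39. The 17 Fe gene probe sets higher at 6 h became 11 to 19 with arrays left out, and 20 with the pseudocount of 16 and with the block, and the 5 lower ones 2 to 5 with arrays left out. The 19 higher at 24 h became 11 to 22 with arrays left out and 23 with the block, and the 5 lower ones 1 to 5 with arrays left out. The number of members whose arrays did not overlap was 4 to 6 at 6 h and 6 to 7 at 24 h. The members were selected on this contrast, and a group with an array left out overlaps less easily. The share over all probe sets was not counted under these alternatives, and nothing is read from this range. For r with the closest Fe gene the 5 alternatives were other measures, not other processing. They were Spearman's rho, r without the 2 farthest arrays, r within each medium, and r of the deviations. Of these values 18 moved by less and 17 by more than 1 standard error, and none changed sign. With 2 arrays a group at 24 h, the error there rests on the spread at other times. The cause of these shifts was not tested.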
